A study of Mus musculus with 13 samples.

Results

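The genes described here encode the protein subunits of the cytosolic ribosome. They were taken by name from the deposited table of 15645 genes whose counts averaged 10 or more over the libraries, as every gene whose symbol is Rpl, Rps or Rplp followed by a number and at most 1 of the letters a, l or x. That rule gave 75 genes, 45 of the large and 30 of the small subunit. It leaves out pseudogenes with names ending in -ps and the Rps6 kinases, and it also misses Rpsa, Fau and Rps3a1, ribosomal protein genes whose names follow another pattern. Of the 75 genes, 74 are annotated as protein-coding, and Rps4l is annotated as a transcribed processed pseudogene.

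The eukaryotic ribosome has a small subunit, which binds the mRNA and reads its codons, and a large subunit, which joins amino acids and passes the new chain out through a tunnel. Each subunit is built in the nucleolus from ribosomal RNA and ribosomal proteins, so the genes of both are needed in matched amounts. Their mRNAs typically begin with a run of pyrimidines, the TOP motif, through which mTOR signalling adjusts their translation, and heart growth depends on the supply of ribosomes.

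RNA came from nuclei of mouse ventricles (strain C57BL/6J) that were sorted for Pcm1, a protein that marks the nuclei of cardiomyocytes. Pups of both sexes were given virus of adeno-associated serotype 6 into the peritoneum on postnatal day 1 and their ventricles were taken on postnatal day 56, so all groups carried a vector. In the control groups the vector held no insert, and in the PGR groups it held the human progesterone receptor (PR), a nuclear receptor that regulates genes when it binds progesterone. There were 4 libraries of control females (Con_F) and 3 each of control males (Con_M), PGR females (PGR_F, numbered 1, 2 and 4) and PGR males (PGR_M). Each library pooled 3 to 6 ventricles, and the sources used here do not give the promoter that drove the insert. The title of the study names sex-specific control of heart maturation by this receptor, and the comparisons below ask how the ribosomal protein genes differed with the vector and between the sexes.

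Total counts were 31.8 to 86.3 M per library, and the 75 genes together took 0.0458% to 0.0547% of them, with a median of 124 to 377 counts per gene and library. The summed level of 10 cardiomyocyte markers was 77177 to 95732 CPM (counts per M, scaled with TMM factors) in every library, while 10 fibroblast markers summed to 27.5 to 107 CPM and 10 endothelial markers to 29.5 to 67.8. Con_F 4 stood apart from the other female libraries: its counts of 4 Y-linked genes reached 1.03% of the mean male level, against at most 0.115% in the others. Values without it are given beside the results that it moves most. In bulk nuclei, fewer nuclei of a type and less RNA per nucleus cannot be told apart.

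Sequences around the transcription start are shown first, because the pyrimidine run at the start is the feature that ribosomal protein mRNAs are best known to share. RefSeq promoters (GRCm38.p6) were matched for 54 of the 75 genes. Each line below gives 15 bases before the start and 15 bases from it on, read 5′ to 3′ on the gene's strand. Capitals mark the longest unbroken run of C and T that touches the 5 bases on either side of the start. The genes are Rpl7a, with the longest run of all, Rpl35, Rps6 and Rps15a as further genes with long runs, Rpl22, Rpl11 and Rps13, which lead the vector comparison, Rpl9 and Rpl23, which lead the sex comparison, and Rpl3l, the muscle gene with the highest level.
Rpl7a (chr2:26910792-26910821, plus strand): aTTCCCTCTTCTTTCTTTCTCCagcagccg
Rpl35 (chr2:39005117-39005146, minus strand): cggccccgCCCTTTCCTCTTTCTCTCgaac
Rps6 (chr4:86857353-86857382, minus strand): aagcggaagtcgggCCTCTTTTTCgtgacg
Rps15a (chr7:118116133-118116162, minus strand): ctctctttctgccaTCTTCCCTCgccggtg
Rpl22 (chr4:152325711-152325740, plus strand): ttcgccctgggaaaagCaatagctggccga
Rpl11 (chr4:136053379-136053408, minus strand): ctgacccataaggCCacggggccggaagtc
Rps13 (chr7:116334176-116334205, minus strand): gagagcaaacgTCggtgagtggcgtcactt
Rpl9 (chr5:65391417-65391446, minus strand): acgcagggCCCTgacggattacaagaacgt
Rpl23 (chr11:97782425-97782454, minus strand): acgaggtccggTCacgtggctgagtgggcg
Rpl3l (chr17:24727811-24727840, plus strand): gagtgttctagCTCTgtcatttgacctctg
The runs are 21 bases in Rpl7a, 18 in Rpl35, 10 in Rps6 and 9 in Rps15a. In Rpl22, Rpl11, Rps13, Rpl9, Rpl23 and Rpl3l they are 1, 2, 2, 4, 2 and 4 bases. These lengths hold for the 1 RefSeq start used per gene, the nearest to the deposited start. It lay 35 bases from the deposited start in Rpl11 and 3553 in Rps24. Another start could give another run, so a short run here does not show that the mRNA lacks a TOP motif. A run of at least 6 was found in 27 of the 54 genes (50%), against 20.8% of the 11180 genes of the deposited table that had a promoter. A run of at least 8 was found in 35.2% of the 54 genes and in 9.96% of all. The median run was 5.5 bases in the ribosomal protein genes and 3 in all.

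Other motifs were searched on both strands of the window of 250 bases before the start, and bases from the start on were not searched. The ETS core CGGAAG was in 29 of the 54 windows (53.7%), against 23.9% of all. The YY1 core AAGATGG was in 5.56% against 4.17%, the E box CACGTG in 7.41% against 8.10%, the GC box GGGCGG in 46.3% against 56.8%, and TATAAA in 3.70% against 6.68%. A steroid receptor palindrome made of GNACA and TGTNC with 3 bases between them was in 0 of the 54 windows and in 0.277% of all. With 31 matches among 11180 genes, a set of 54 would mostly hold none, so the 0 does not show a lack. A match in these windows is a description of the letters and not a measured binding site.

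Levels of the 75 genes were compared per kb of gene interval, since the deposited counts cover each gene from its start to its end. The intervals were short, 0.828 to 31.4 kb with a median of 3.24 kb, against a median of 27.9 kb for the protein-coding genes of the same table. The median level was 1.34 CPM per kb, against 0.491 over all tested genes. A median of 57.6% of the interval was exon in the 75 genes. Levels per whole interval depend on its length and exon share, so these medians do not compare mRNA levels alone. Of the 75 genes, 43 lay between 1 and 2 CPM per kb, 16 below and 16 above.

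**Figure D1:**
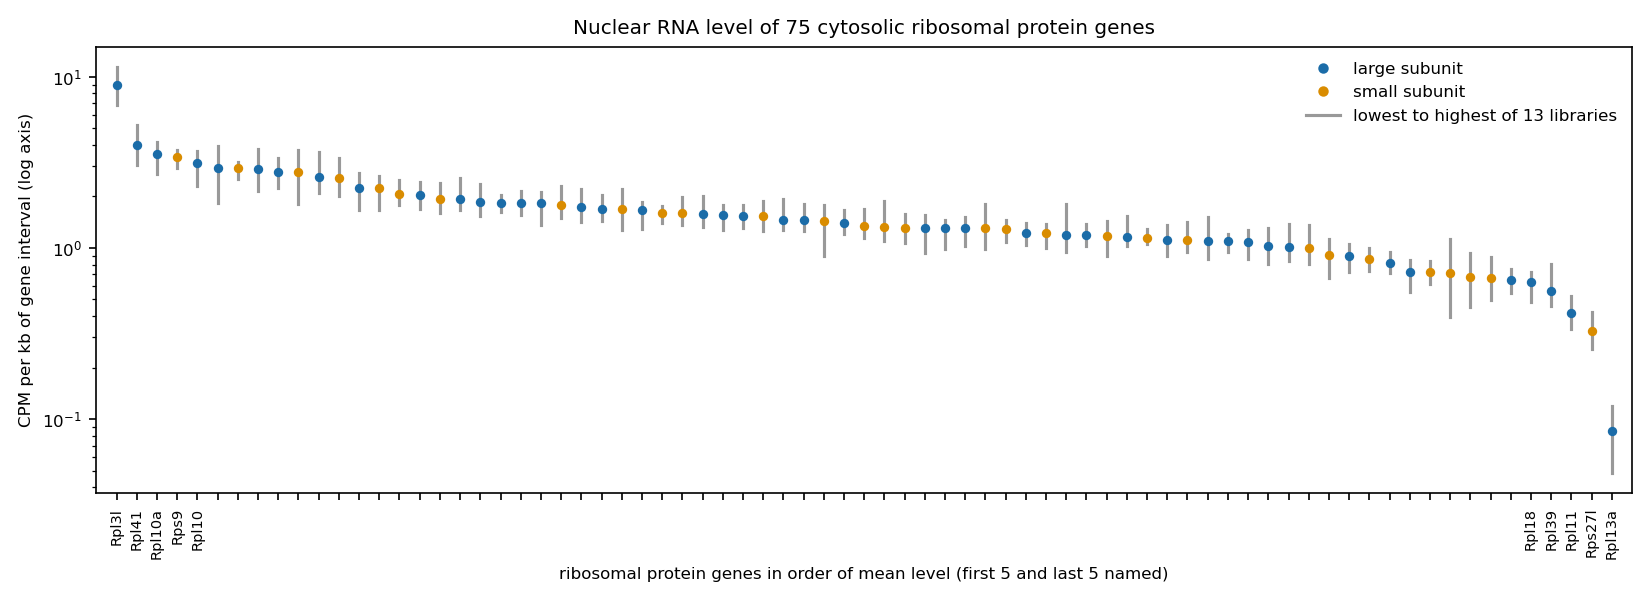
Each point is the mean level of 1 of the 75 ribosomal protein genes over 13 libraries, in CPM per kb of gene interval on a log axis, coloured by subunit, and each bar runs from the lowest to the highest library. The 5 highest and 5 lowest genes are named. Rpl3l stands at the top with 8.89 CPM per kb and Rpl13a at the bottom with 0.0848.

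Rpl3l, the paralog of Rpl3 that is known for its restriction to heart and skeletal muscle, was the highest of all, at 8.89 CPM per kb. It is on chromosome 17 (GRCm38, chr17:24727820-24736143, plus strand), and no other gene shares its interval on that strand. Rpl3l had 73.3, 60.5, 73.6 and 74.96 CPM in Con_F 1 to 4, 72.5, 73.3 and 69.5 in PGR_F 1, 2 and 4, 74.9, 77.2 and 90.8 in Con_M 1 to 3, and 94.6, 57.3 and 70.1 in PGR_M 1 to 3. The groups overlapped, and PGR_M held both the highest and the lowest library of all 13. Rpl3 had 11.7, 12.4, 14.9 and 13.7 CPM in Con_F 1 to 4, 10.2, 13.5 and 12.3 in PGR_F 1, 2 and 4, 11.4, 12.7 and 13.6 in Con_M 1 to 3, and 12.2, 12.3 and 12.7 in PGR_M 1 to 3. Rpl3, which lies near the peptidyl transferase centre of the large subunit, varied less in PGR_M than Rpl3l did, and its groups overlapped too. Per kb, Rpl3 was at 0.724 to 1.06 and Rpl3l at 6.88 to 11.4 CPM per kb over the 13 libraries, with a ratio of 7.90 to 13.1 within libraries. Rpl3l alone made up 14.96% of the CPM of the 75 genes.

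**Figure D2:**
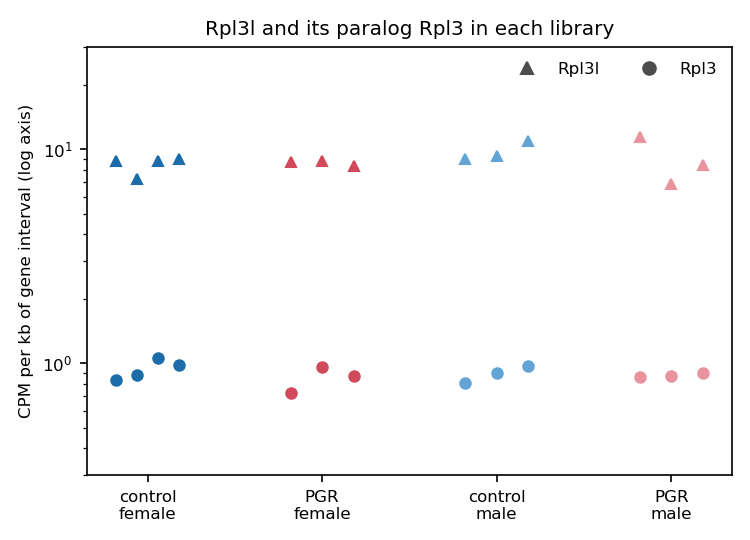
Points are CPM per kb of gene interval on a log axis for Rpl3l (triangles) and Rpl3 (circles) in each of the 13 libraries, by group. Rpl3l lies between 6.88 and 11.4 and Rpl3 between 0.724 and 1.06, so their ranges do not meet.

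After Rpl3l, the highest levels per kb were those of Rpl41 (3.98 CPM per kb), the smallest ribosomal protein, Rpl10a (3.55), a protein of the L1 stalk, Rps9 (3.4) and Rpl10 (3.12), which joins the large subunit late in its assembly. The lowest were Rpl13a (0.0848), Rps27l (0.327), Rpl11 (0.418), Rpl39 (0.559) and Rpl18 (0.633). Rpl11 is low only per kb, since its interval is 25.2 kb long and 10.7% of it is exon. Its mean of 10.5 CPM was above the median of the 75 genes, 4.48 CPM. Rpl13a carries small nucleolar RNA genes and another gene within its interval, and only 11.4% of its bases are free of another gene on the same strand. The sources used here do not give how reads in such intervals were assigned, so the level of Rpl13a is uncertain. Same-strand overlap was seen for 29 of the 75 genes, all 29 with a small RNA gene inside.

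The other paralog pairs were compared per kb as well. Rps27l, a paralog of Rps27 known as a p53 target, was at 0.258 to 0.423 CPM per kb over the 13 libraries, and Rps27 at 2.54 to 3.16. Rps4l was at 0.397 to 1.12 and its X-linked relative Rps4x at 1.00 to 1.39. Rpl22l1 was at 0.434 to 0.763 and Rpl22 at 0.944 to 1.80, and Rpl7l1 was at 0.981 to 1.25 and Rpl7 at 1.27 to 1.78. Per kb, in these 4 pairs the first-named gene was below its partner in 13 of 13 libraries, the opposite order to Rpl3l and Rpl3. For Rpl7l1 and Rpl7 that order rests on the division by their intervals, 8.77 and 3.37 kb. Before it, Rpl7l1 was the higher, at 8.60 to 10.99 CPM against 4.26 to 5.996 for Rpl7.

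Names of the pattern that the deposited table of 15645 genes does not hold were looked up in the broader table. There were 7. Rpl10l, Rpl13, Rpl24 and Rpl32l had 0 counts, Rps10 had 3, Rpl39l had 6 and Rpl6l had 17 in all libraries together. Rpl13 and Rpl32l lie inside a longer gene on the same strand, and Rpl24 and Rps10 are each overlapped by another gene that leaves 1.32% and 23.1% of their bases free, so these counts do not measure their expression. Rpl39l, which has its interval to itself, was close to 0 by contrast. Rows with pseudogene names ending in -ps held 2070 counts in all, 0.668% of the 309806 counts of the 75 genes.

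Between libraries the genes varied little. Within groups, the median SD was 0.15 on the log2 CPM scale, against 0.19 over all tested genes. For 34 of the 75 genes the highest of the 13 libraries was within 1.5-fold of the lowest, and for 70 within 2-fold. The summed level of the 75 genes was 537, 500.3, 554 and 505 CPM in Con_F 1 to 4, 461, 499.7 and 497 in PGR_F 1, 2 and 4, 485, 481 and 514 in Con_M 1 to 3, and 478, 447 and 476 in PGR_M 1 to 3. In both sexes all 3 PGR libraries lay below the control libraries, by less than 1 CPM in females, where Con_F 2 and PGR_F 2 were nearly level. Without Rpl3l, 74 genes summed to 430 to 481 CPM in Con_F, 388 to 427 in PGR_F, 404 to 424 in Con_M and 383 to 405 in PGR_M, where the male groups overlapped. Con_F 3 was the highest library for 27 of the 75 genes and Con_F 1 for 16, and PGR_F 1 was the lowest for 19.

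**Figure D3:**
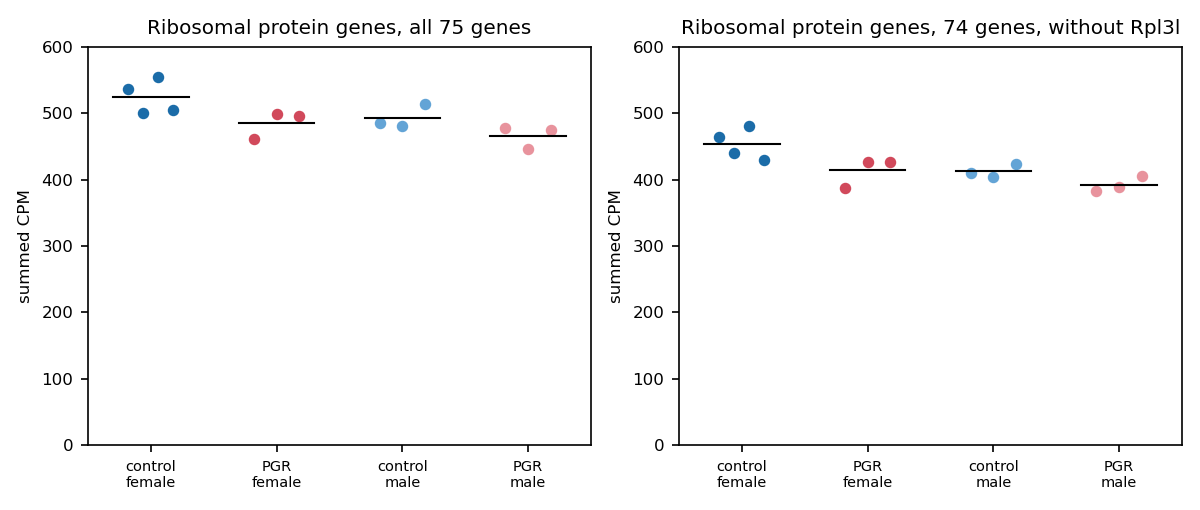
Points are the summed CPM of the ribosomal protein genes in each library, by group, with the group mean as a bar, for all 75 genes (left) and for 74 without Rpl3l (right). Control females reach 554 CPM on the left, and the lowest library is a PGR male at 447.

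With the PGR vector most of the ribosomal protein genes stood slightly lower in females, and 0 passed the test. EdgeR's quasi-likelihood test with Benjamini-Hochberg adjustment called 0 of the 75 genes and 0 of all 16125 tested (0%). Over all genes the number called in females was 20 without Con_F 4, 81 with DESeq2 and 25 with no count filter, with 0 of the 75 called in each case. Limma-voom called 0 of the 75 in each of the 7 comparisons, and DESeq2 called 0 in 6 of them and Rpl22 in the averaged vector comparison. The median log2 fold change, PGR over control, was -0.12, against 0.00 over all genes, and 63 of 75 genes were below 0. At an unadjusted p under 0.05, 6 of the 75 were lower (8%), against 5.15% of all genes, and 0 were higher, against 5.8%. The libraries of both groups did not overlap for 6 genes that were lower (8%, against 4.07% of all) and for 1 that was higher (1.33%, against 4.17%). The number lower at an unadjusted p under 0.05 was 16 without Con_F 4 and 3 without PGR_F 1, and without PGR_F 1 the median was -0.07. Scaled by library size alone, 54 of 75 were below 0 and the median was -0.06, with the median of all genes at 0.06.

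In males the median was closer to 0. EdgeR called 0 of the 75 and 0 of all genes (0%). Over all genes the number was 1 without Con_F 4, 3 without PGR_M 2, 29 with DESeq2 and 12 with no count filter. The median was -0.06 against 0.00, and 52 of 75 genes were below 0. The number lower at an unadjusted p under 0.05 was 3 (4%), against 3.94% of all, and 0 were higher, against 3.53%. Groups did not overlap for 8 genes that were lower (10.7%, against 8.48% of all) and for 0 that were higher (against 7.2%). Without Con_M 3 the median was -0.01 and without PGR_M 1 it was -0.03. The count of 3 became 0 without Con_M 2, Con_M 3 or PGR_M 2 and 1 without PGR_F 4. In both sexes 46 of 75 genes were below 0, and 6 were above 0 in both.

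Averaged over the sexes, the median was -0.09 against 0.00, with 60 of 75 genes below 0. EdgeR called 0 of the 75, against 1 of all genes that was lower (0.0062%). At an unadjusted p under 0.05, 9 were lower (12%), against 7.45% of all, and 0 were higher, against 7.37%. Over both sexes together, 0 genes had all PGR libraries below all controls (against 0.36% of all) or all above (against 0.26%). The 9 were Rpl10a, Rpl11, Rpl22, Rpl35, Rpl37, Rplp2, Rps13, Rps15a and Rps18. Con_F 4 was the lowest of the control females for 8 of these 9, and for 28 of the 75. Without it, 15 genes were lower at an unadjusted p under 0.05 and 2, Rpl22 and Rpl11, passed the adjusted threshold, while the count over all genes went from 1 to 338. The count of 9 became 5 without Con_F 3, PGR_F 1, PGR_F 2 or PGR_M 2, and the median became -0.06 without PGR_F 1. Scaled by library size alone, 50 of 75 were below 0 and the median was -0.04. The large subunit had 34 of 45 genes below 0 (median -0.08) and the small subunit 26 of 30 (median -0.09).

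**Figure D4:**
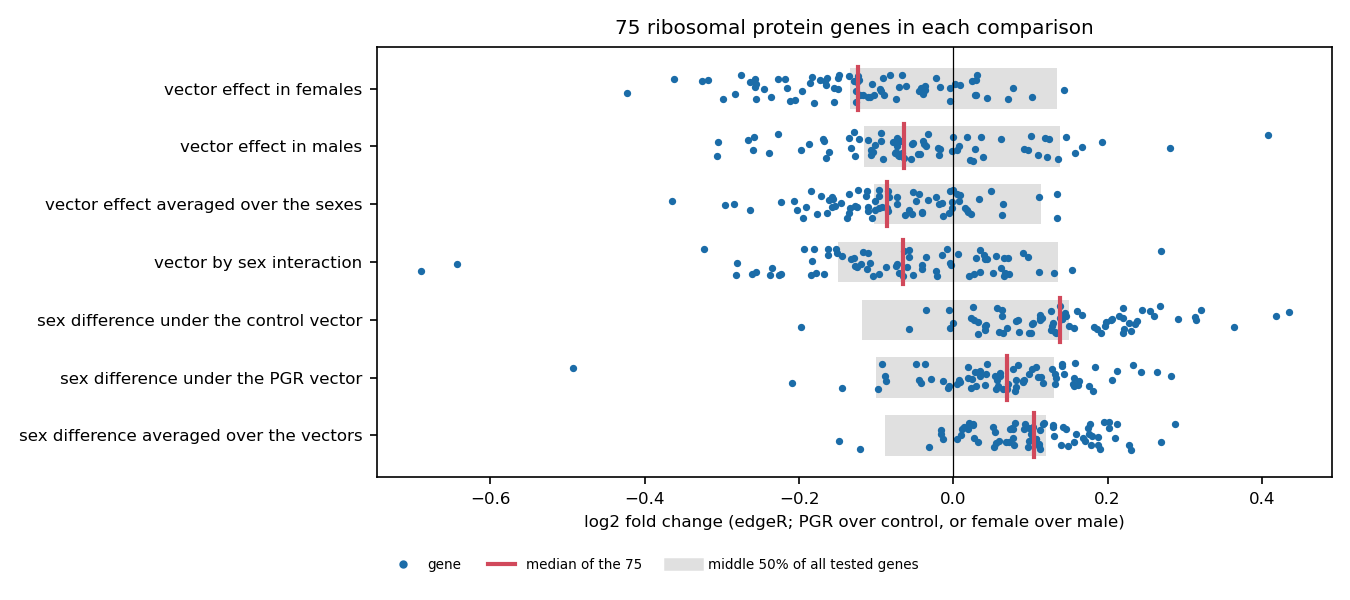
Each point is the log2 fold change of 1 of the 75 genes in a comparison, the red line is their median, and the grey bar spans the middle 50% of all tested genes. The red line is left of 0 in the 4 comparisons that involve the vector, down to -0.12 in females, and right of 0 in the 3 sex comparisons, up to 0.14 under the control vector.

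Rpl22, an RNA-binding protein of the large subunit near the exit of the peptide tunnel, had the smallest p of the 75 genes in the averaged comparison. It lies at chr4:152325742-152334071 (GRCm38, plus strand), free of same-strand overlap. Rpl22 had 11.9, 11.4, 15.02 and 9.12 CPM in Con_F 1 to 4, 9.48, 8.42 and 8.68 in PGR_F 1, 2 and 4, 10.04, 10.5 and 10.1 in Con_M 1 to 3, and 8.55, 8.39 and 7.86 in PGR_M 1 to 3. All PGR males lay below all control males, while in females PGR_F 1 was above Con_F 4 and every other PGR library lay below the controls. Its log2 fold change was -0.42 (SE 0.13) in females, -0.31 (SE 0.14) in males and -0.37 (SE 0.09, edgeR adjusted p = 0.119) averaged. The averaged adjusted p was 0.0260 without Con_F 4, 0.0283 in DESeq2 and 0.0478 with no count filter, so the call depends on these choices.

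Rpl11 and Rpl5 form a complex with 5S ribosomal RNA that enters the large subunit and, when free, binds the p53 regulator Mdm2. Rpl11 had 12.2, 12.4, 13.2 and 9.36 CPM in Con_F 1 to 4, 9.23, 9.42 and 10.1 in PGR_F 1, 2 and 4, 10.8, 11.4 and 10.5 in Con_M 1 to 3, and 10.1, 9.32 and 8.50 in PGR_M 1 to 3. Con_F 4 lay below 2 of the PGR females, the other control females lay above all of them, and the male groups did not overlap. The averaged log2 fold change of Rpl11 was -0.26 (SE 0.08, edgeR adjusted p = 0.174), with an adjusted p of 0.0367 without Con_F 4. Rpl5 was at -0.12 (SE 0.06), with 16.99 ± 1.46 (Con_F, SD, n = 4), 15.3 ± 0.503 (PGR_F, SD, n = 3), 15.4 ± 0.723 (Con_M, SD, n = 3) and 14.4 ± 1.16 (PGR_M, SD, n = 3) CPM in the 4 groups. Rpl11 (chr4:136028265-136053428, GRCm38, minus strand) and Rpl22 are on the same chromosome, and their intervals are far apart.

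The next genes in the order of p were Rps13 of the small subunit, Rpl35 at the tunnel exit and Rps15a of the small subunit. Rps13 had 4.89, 5.93, 5.19 and 4.63 CPM in Con_F 1 to 4, 3.84, 4.16 and 4.32 in PGR_F 1, 2 and 4, 4.61, 4.73 and 4.70 in Con_M 1 to 3, and 3.58, 3.44 and 4.66 in PGR_M 1 to 3. Female groups did not overlap, and in males PGR_M 3 lay among the controls. Rpl35 had 5.49, 4.67, 6.10 and 4.36 CPM in Con_F 1 to 4, 4.55, 3.896 and 4.46 in PGR_F 1, 2 and 4, 4.37, 4.76 and 4.45 in Con_M 1 to 3, and 3.51, 3.51 and 3.96 in PGR_M 1 to 3. Con_F 4 was below 2 of the PGR females, and the male groups did not overlap. Rps15a had 22.4, 23.2, 27.03 and 18.7 CPM in Con_F 1 to 4, 21.5, 19.4 and 19.4 in PGR_F 1, 2 and 4, 20.7, 23.9 and 22.04 in Con_M 1 to 3, and 19.6, 18.5 and 17.6 in PGR_M 1 to 3. Con_F 4 was again the lowest control female, below all PGR females, and all PGR males lay below the control males. The averaged log2 fold changes were -0.30 (SE 0.10, edgeR adjusted p = 0.19) for Rps13, -0.28 (SE 0.10, edgeR adjusted p = 0.204) for Rpl35 and -0.22 (SE 0.08, edgeR adjusted p = 0.213) for Rps15a. These did not pass.

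**Figure D5:**
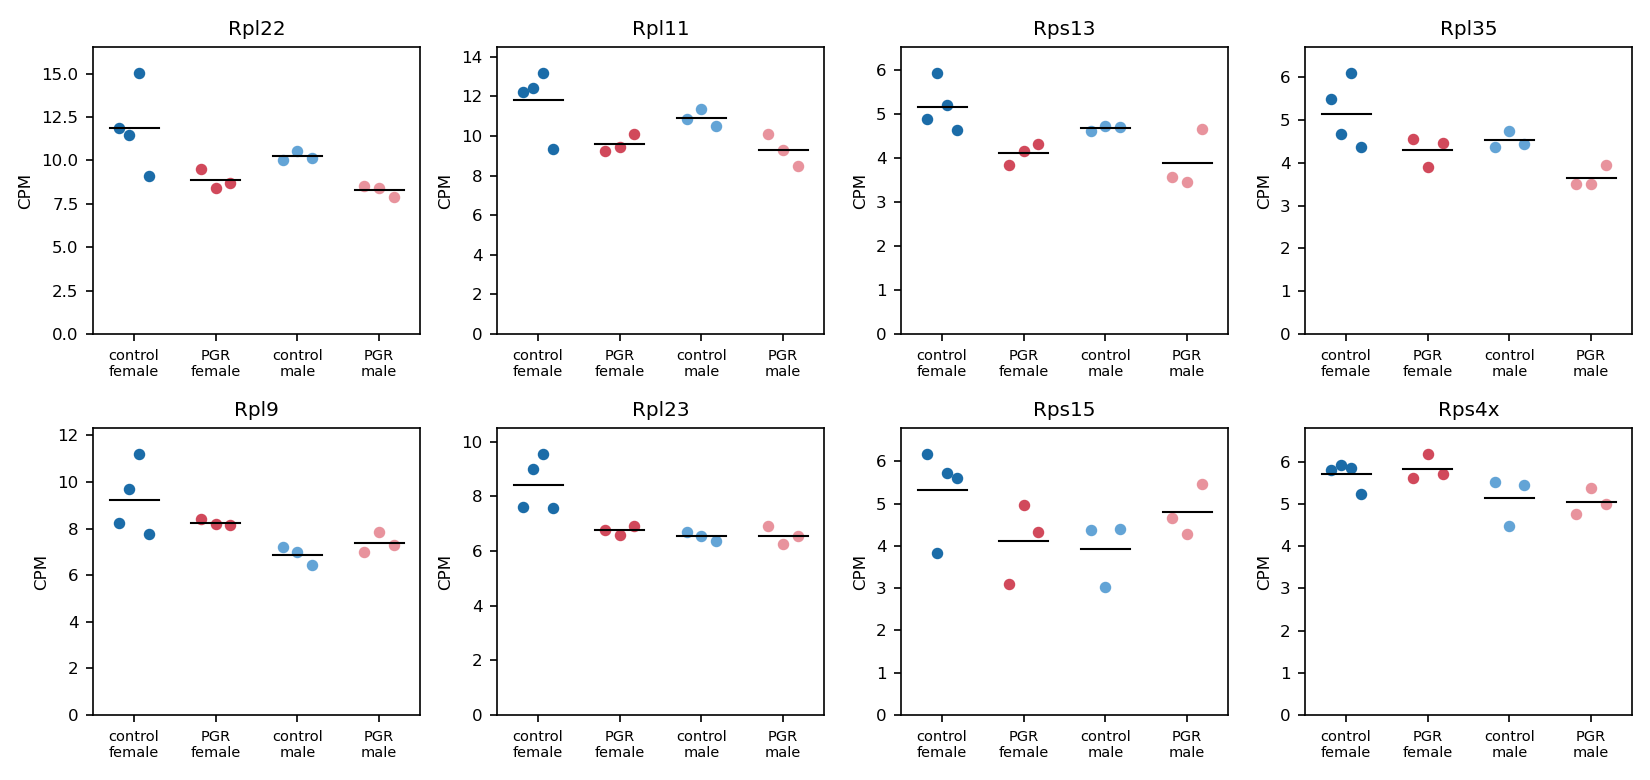
Points are CPM in each library, by group, with the group mean as a bar, for 8 ribosomal protein genes; every axis starts at 0. Rpl22, Rpl11, Rps13 and Rpl35 have lower means in the PGR groups than in the controls of the same sex, whereas Rpl9 and Rpl23 are highest in control females.

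In the P stalk, which recruits the GTPases of elongation, the proteins did not share a direction. Rplp2 was at -0.20 (SE 0.08) averaged, Rplp1 at 0.11 (SE 0.14), Rplp0 at 0.02 (SE 0.10) and Rpl12, at the base of the stalk, at 0.01 (SE 0.08). Rplp2 had 9.24, 9.19, 10.8 and 7.403 CPM in Con_F 1 to 4, 7.52, 7.73 and 7.76 in PGR_F 1, 2 and 4, 8.25, 8.38 and 7.22 in Con_M 1 to 3, and 7.36, 7.36 and 7.06 in PGR_M 1 to 3. All 6 PGR libraries of Rplp2 were within 7.06 to 7.76 CPM, and Con_M 3 and Con_F 4 fell in that range.

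The list of the peptide exit tunnel held 9 genes, Rpl17, Rpl19, Rpl22, Rpl23a, Rpl26, Rpl31, Rpl35, Rpl38 and Rpl39, and 9 of 9 were below 0 averaged over the sexes (median -0.12). Their summed level was 43.6 to 52.8 CPM in Con_F and 42.2 to 44.0 in Con_M, against 39.3 to 41.8 in PGR_F and 37.6 to 38.7 in PGR_M, so every PGR library was below every control library. Without Rpl22, the 8 others summed to 33.2 to 37.8, 32.1 to 33.8, 29.8 to 33.1 and 29.1 to 30.8 CPM in the same order, where PGR_F overlapped Con_M. Of the 9, 2 were lower at an unadjusted p under 0.05 (22.2%, against 12% of the 75 genes and 7.45% of all genes). Among the 75 genes that these role lists were drawn from, 60 were below 0. Of the genes mutated in Diamond-Blackfan anaemia, an inherited failure of red cell production, 15 of 18 were below 0 (median -0.14). Of these 18, 3 were lower at an unadjusted p under 0.05 (16.7%, against the same 12% and 7.45%). Rps19, the one most often mutated in that disease, was at -0.14 (SE 0.09). Of 7 genes of the mRNA channel and decoding site 6 were below 0 (median -0.11), and of 5 near the peptidyl transferase centre 3 were (median -0.05), with Rpl10 at 0.05 (SE 0.09) and Rpl3l at -0.05 (SE 0.10). Rps6, the substrate of the S6 kinases, was at -0.11 (SE 0.09).

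Averaged over the sexes, 15 of the 75 genes stood above 0 with the vector, and 0 of them had an unadjusted p under 0.05. Rpl7 had 5.18, 5.04, 5.48 and 5.47 CPM in Con_F 1 to 4, 5.77, 5.996 and 5.77 in PGR_F 1, 2 and 4, 5.35, 4.501 and 4.26 in Con_M 1 to 3, and 4.51, 5.18 and 5.79 in PGR_M 1 to 3. Rpl7 alone of the 75 genes had all PGR females above all control females, and the male groups overlapped. Its log2 fold change was 0.14 (SE 0.12) in females and 0.12 (SE 0.13) in males. Rps29 was at 0.10 (SE 0.16) and 0.17 (SE 0.17) in the same order, and Rps14, above 0 in females and below 0 in males, at 0.07 (SE 0.10) and -0.20 (SE 0.10). The female value of Rps14 was -0.0013 without PGR_F 4, so its direction there rests on that library. In males Rpl13a was at 0.41 (SE 0.36), on 0.156 to 0.380 CPM over all libraries, Rps15 at 0.28 (SE 0.21) and Rpl12 at 0.15 (SE 0.12). In females Rpl10a was at -0.28 (SE 0.10) and Rpl23 at -0.32 (SE 0.10), and both had groups that did not overlap there.

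Whether the vector effect differed between the sexes was tested as an interaction, the female minus the male log2 fold change. EdgeR called 0 of the 75 genes and 0 of all (0%). The median was -0.07 against 0.00, with 52 of 75 below 0, and 1 gene was lower at an unadjusted p under 0.05 (1.33%), against 1.54% of all, with 0 higher, against 1.72%. That count was 0 without Con_F 3, Con_M 2, PGR_F 1 or PGR_M 3 and 2 without Con_F 2, PGR_F 4 or PGR_M 2. The median was -0.04 without Con_F 1 or PGR_F 1 and -0.10 to -0.12 without Con_M 3, PGR_F 2, PGR_F 4 or PGR_M 1. Scaled by library size alone, 46 of 75 were below 0 and the median was -0.03, with the median of all genes at 0.04. The gene was Rps15, which lies near the decoding site of the small subunit. Rps15 had 6.17, 3.83, 5.72 and 5.61 CPM in Con_F 1 to 4, 3.09, 4.96 and 4.32 in PGR_F 1, 2 and 4, 4.38, 3.02 and 4.39 in Con_M 1 to 3, and 4.65, 4.28 and 5.46 in PGR_M 1 to 3. PGR females were mostly below control females and PGR males mostly above control males, with overlap in both sexes. The difference was -0.64 (SE 0.28, edgeR adjusted p = 1). Rpl23 was at -0.32 (SE 0.15), Rpl12 at -0.28 (SE 0.16), Rps14 at 0.27 (SE 0.14), Rpl3l at 0.15 (SE 0.20) and Rpl26 at 0.13 (SE 0.19). Rpl3l was at -0.0078 without PGR_M 2.

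Between the sexes, most of the genes stood slightly higher in females. Under the control vector, 69 of 75 genes were above 0 (female over male, median 0.14 against 0.00 over all genes). EdgeR called 0 of the 75, against 0.0992% of all genes higher and 0.13% lower. That is 37 genes in all, and there were 92 without Con_F 4, 99 without Con_M 1 and 14 without Con_F 2 or Con_F 3. With DESeq2 there were 224 and with no count filter 131. At an unadjusted p under 0.05, 8 were higher (10.7%), against 7.36% of all, and 0 were lower, against 5.07%. Groups did not overlap for 10 genes, all higher in females (13.3%, against 6.41% of all), and for 0 that were lower (against 4.94%). Rpl12, Rpl18, Rpl23, Rpl27a, Rpl6, Rpl9 and Rps15 were among the 8, and there were 13 without Con_F 4 and 4 without Con_F 1, Con_F 3 or Con_M 2.

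Rpl9 and Rpl23, both of the large subunit, had the smallest p. Rpl9 had 8.25, 9.71, 11.2 and 7.75 CPM in Con_F 1 to 4, 8.39, 8.18 and 8.13 in PGR_F 1, 2 and 4, 7.21, 7.01 and 6.44 in Con_M 1 to 3, and 7.01, 7.85 and 7.29 in PGR_M 1 to 3. Every control female was above every control male, and the PGR females, at 8.13 to 8.39 CPM, were also above the PGR males. Rpl23 had 7.61, 8.98, 9.55 and 7.56 CPM in Con_F 1 to 4, 6.77, 6.59 and 6.91 in PGR_F 1, 2 and 4, 6.69, 6.55 and 6.38 in Con_M 1 to 3, and 6.91, 6.24 and 6.55 in PGR_M 1 to 3. Control females were again above all control males, whereas the PGR groups of both sexes overlapped. Under the control vector the log2 fold change was 0.42 (SE 0.12, edgeR adjusted p = 0.197) for Rpl9 and 0.36 (SE 0.10, edgeR adjusted p = 0.199) for Rpl23. It was 0.31 (SE 0.11) for Rpl12, 0.31 (SE 0.11) for Rpl27a and 0.32 (SE 0.14) for Rpl18. Among the 6 genes below 0 were Rpl3l at -0.20 (SE 0.13), Rps19 at -0.06 (SE 0.12) and Rpl7a, which hosts small nucleolar RNAs in its introns, at -0.03 (SE 0.14). Rps19 stood above 0 without Con_F 4, and Rpl7a without Con_F 2, Con_F 3 or Con_M 3.

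Under the PGR vector the median was 0.07 against 0.01 over all genes, with 60 of 75 above 0. EdgeR called 0 of the 75, against 0.0806% of all genes higher and 0.062% lower. These 23 genes became 44 without Con_F 4, 10 without PGR_F 1, 80 with DESeq2 and 51 with no count filter. At an unadjusted p under 0.05, 1 gene was higher (1.33%), against 4.11% of all, and 0 were lower, against 3.14%. For 10 genes, all higher in females, the groups did not overlap (13.3%, against 7.31%), and for 0 that were lower (against 6.41%). The gene was Rps14, a small subunit gene known for its loss in the 5q- syndrome, and the count was 0 without PGR_F 4 or PGR_M 2. The median was 0.12 without PGR_F 1, 0.04 without PGR_F 4 and 0.05 without PGR_M 1. Rps14 had 29.04, 25.2, 28.2 and 27.4 CPM in Con_F 1 to 4, 26.3, 28.8 and 31.4 in PGR_F 1, 2 and 4, 23.5, 27.98 and 31.3 in Con_M 1 to 3, and 23.98, 23.1 and 24.99 in PGR_M 1 to 3. Rps14 was higher in all PGR females than in any PGR male, and its control groups overlapped. Its log2 fold change was 0.26 (SE 0.10, edgeR adjusted p = 0.591) under the PGR vector and 0.00 (SE 0.10) under the control vector. Rpl37 was at 0.24 (SE 0.13) and Rps9 at 0.18 (SE 0.09) under the PGR vector, and below 0 were Rpl13a at -0.49 (SE 0.37), Rps15 at -0.21 (SE 0.20) and Rpl10a at -0.10 (SE 0.11), which stood above 0 without PGR_F 1. Scaled by library size alone, 68 of 75 were above 0, with a median of 0.12 and the median of all genes at 0.07.

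Averaged over the vectors, 69 of 75 genes were above 0 (median 0.10 against 0.01). EdgeR called 0 of the 75, against 0.478% of all genes higher and 0.409% lower. The total of 143 became 371 without Con_F 4, 465 without Con_M 1 and 64 without Con_M 2. It was 548 with DESeq2 and 363 with no count filter. Higher at an unadjusted p under 0.05 were 11 genes (14.7%), against 8.87% of all, and 0 were lower, against 6.24%. Over both vectors together, 0 genes had all females above all males (against 0.54% of all) or all below (against 0.366%). The number was 16 without Con_F 4, 2 without PGR_F 4, 3 without Con_M 2, 5 without PGR_M 1, 6 without Con_F 3 and 7 without PGR_F 2, PGR_M 2 or PGR_M 3. Rpl9 was at 0.29 (SE 0.09, edgeR adjusted p = 0.129) and Rpl23 at 0.20 (SE 0.08). The lowest were Rpl3l at -0.12 (SE 0.10), Rpl13a at -0.15 (SE 0.26) and Rps19 at -0.03 (SE 0.09), of which Rpl13a stood above 0 without Con_M 1 and Rps19 without Con_F 4, with library size alone and with the replicate block.

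The 4 X-linked genes, Rpl10, Rpl36a, Rpl39 and Rps4x, were above 0 under both vectors. Rps4x had 5.804, 5.93, 5.86 and 5.24 CPM in Con_F 1 to 4, 5.61, 6.18 and 5.701 in PGR_F 1, 2 and 4, 5.52, 4.47 and 5.45 in Con_M 1 to 3, and 4.75, 5.38 and 4.99 in PGR_M 1 to 3. Under the PGR vector all females were above all males for Rps4x, and under the control vector the groups overlapped. Averaged over the vectors, the log2 fold change was 0.18 (SE 0.08, edgeR adjusted p = 0.304) for Rps4x, 0.18 (SE 0.09) for Rpl10, 0.11 (SE 0.12) for Rpl36a and 0.27 (SE 0.13) for Rpl39. Their median was 0.18, beside 0.10 for the 75 genes.

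Markers of other cell types also differed between the sexes, in directions that depended on the cell type. In the control groups the 10 fibroblast markers summed to 68.6 to 107 CPM in females and 27.5 to 58.8 in males (10 of 10 above 0, median 0.89), the 10 endothelial markers to 56.0 to 67.8 and 29.5 to 53.4 (10 of 10, median 0.63), and the 10 macrophage markers to 14.3 to 21.6 and 9.43 to 16.0 (9 of 10, median 0.50). Smooth muscle and pericyte markers summed to 306 to 343 and 326 to 341 CPM, most of it from Abcc9, at 249.9 to 319 CPM over the 13 libraries, and 7 of the 9 tested were above 0 (median 0.19), with Cnn1 at or near 0 in all libraries. The 5 tested erythroid markers were at 2.80 to 6.93 and 6.27 to 6.71 CPM (5 of 5 below 0), with Slc4a1 and Epb42 at or near 0. Cardiomyocyte markers were at 80813 to 92223 CPM in Con_F and 82545 to 91409 in Con_M, and 10 mitochondrially encoded mRNAs had a median of -0.46 (9 of 10 below 0). Under the PGR vector the fibroblast markers summed to 53.1 to 98.8 CPM in females and 32.9 to 80.0 in males. Endothelial markers summed to 39.0 to 67.3 and 32.4 to 58.0, and macrophage markers to 15.3 to 21.9 and 11.6 to 20.2. The sums of these lists overlapped between the sexes there. The part of the markers and of the mitochondrially encoded mRNAs in the sex difference of the ribosomal protein genes was not tested.

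With the vector, averaged over the sexes, 7 of the 10 cardiomyocyte markers were below 0 (median -0.13) and 10 of the 10 macrophage markers above 0 (median 0.16). Fibroblast markers were divided 6 to 4 (median 0.05) and endothelial markers 5 to 5 (median 0.00), and 9 of 10 mitochondrially encoded mRNAs were above 0 (median 0.17). Within each sex some of these lists moved apart. Endothelial markers were below 0 in females for 10 of 10 (median -0.24), above 0 in males for 10 of 10 (median 0.21) and below 0 in the interaction for 10 of 10 (median -0.49). Their sums were 56.0 to 67.8 CPM in Con_F, 39.0 to 67.3 in PGR_F, 29.5 to 53.4 in Con_M and 32.4 to 58.0 in PGR_M, so the groups overlapped in both sexes. Fibroblast markers were below 0 in females for 6 of 10 (median -0.07), above 0 in males for 8 of 10 (median 0.13) and below 0 in the interaction for 8 of 10 (median -0.24). Macrophage markers were above 0 for 5 of 10 in females and 9 of 10 in males (medians 0.06 and 0.34), and below 0 in the interaction for 8 of 10 (median -0.38). The part of these markers in the vector effect and in the interaction of the ribosomal protein genes was not tested.

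Other genes of ribosome supply and translation were read from fixed lists in the averaged vector comparison, where 0 of their genes passed in edgeR. Of 74 mitochondrial ribosomal protein genes, 59 were below 0 (median -0.07), with 10 lower (13.5%, against 7.45% of all genes) and 1 higher at an unadjusted p under 0.05. Mrpl14 was at -0.29 (SE 0.07) and Mrpl1 at 0.16 (SE 0.05). Of 53 listed factors of translation initiation, elongation or release, 44 were below 0 (median -0.11), with 17 lower and 0 higher. The 17 were led by the scaffold Eif4g1 at -0.26 (SE 0.07) and the release factor Gspt1 at -0.19 (SE 0.05). Those 17 are 32.1% of the list, against 7.45% of all genes.

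Of 64 tested ribosome biogenesis genes, 46 were below 0 (median -0.05), with 12 lower (18.8%, against 7.45% of all genes) and 0 higher (against 7.37%), among them the U3 component Rrp9 at -0.48 (SE 0.11) and the helicase Ddx21 at -0.34 (SE 0.08). RNA polymerase I, which makes the large ribosomal RNA precursor, had 7 of 15 tested genes below 0 (median 0.03), with 3 lower (20%). Below 0 were its factor Ubtf at -0.28 (SE 0.06) and its subunit Polr1e at -0.29 (SE 0.08), although most genes of this list were not below 0. Of 33 genes of TOR signalling and TOP mRNA control, 21 were below 0 (median -0.04), with 3 lower (9.09%, near the 7.45% of all genes) and 1 higher. Larp1, which binds TOP mRNAs, was at -0.15 (SE 0.05), and Rictor, a subunit of mTOR complex 2, at 0.13 (SE 0.05). Small nucleolar RNA host genes had 10 of 14 below 0 (median -0.14), with 0 at an unadjusted p under 0.05, Gas5 at -0.12 (SE 0.07) and Snhg20 at -0.24 (SE 0.12). Of the ribosomal protein genes outside the name pattern, 5 of 10 were tested and 4 of them were below 0, with Rps3a1 at -0.12 (SE 0.08) and Fau at 0.08 (SE 0.12).

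The pyrimidine run at the start was set beside the differences. The 27 genes with a run of at least 6 had a median averaged vector effect of -0.11, with 24 below 0, and the 27 with a shorter run a median of -0.09, with 23 below 0. The 21 genes with no matched promoter had a median of -0.06, with 13 below 0. Of the 9 genes lower at an unadjusted p under 0.05, 5 had a run of at least 6, among them Rpl35, and 4 had a shorter run, among them Rpl22, Rpl11 and Rps13. The 21 unmatched genes held 0 of these 9. For the averaged sex difference the medians were 0.10, 0.11 and, in the unmatched genes, 0.10.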

How the data were processed

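RNA was measured in 13 libraries. The authors deposited raw counts of reads per gene, per the file headers with chromosome, start, end, strand and length, and the counts are whole numbers with totals that differ between libraries. The length equals end minus start plus 1 in all 55536 genes, so introns are counted with exons and nascent RNA can contribute. Per the submitters' processing notes, featureCounts 1.5.0 and STAR 2.5.3a were used with builds GRCm38 and mm10. The sources used here do not give how reads in overlapping or near-identical genes were assigned. Per the labels' protocols, ribosomal RNA was depleted and libraries were strand-aware. All 55536 identifiers matched GENCODE annotation of GRCm38.

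The broader table was fitted with edgeR 4.0.16 in R 4.3.3 (filterByExpr by the 4 groups, 16125 genes, TMM, 4 group means, robust quasi-likelihood test, 7 contrasts, Benjamini-Hochberg adjustment over all tested genes, threshold 0.05). All 75 genes passed the filter. Standard errors were taken as the log2 fold change over the root of its F statistic. CPM is computed from TMM-scaled counts. Limma 3.58.1 and DESeq2 1.42.0, RLE factors, library size alone, no filter, the smaller table, a replicate block, leaving out each library and genes free of overlap were alternatives.

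The genes, lists and tests were chosen with earlier results of these data known. Named genes were the 3 higher and 3 lower with the smallest p in each contrast, the 5 highest and 5 lowest per kb, paralog pairs, X-linked genes, P stalk and 5S partners, and Rps6, and from other lists the 2 higher and 2 lower with the smallest p, of which those shown are a part. Some genes that the rule names are not reported here. The exit tunnel, Diamond-Blackfan and other role lists come from general knowledge. Libraries are pools, and p-values measure the spread between these pools. Intervals for counts would cover counting error only and are not given.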

Additional observations from a re-analysis of the deposited data

Results flagged for a closer look

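Among the control females, Rpl3l stood apart in 1 library. Con_F 2 had 60.5 CPM and the other 3 libraries 73.3 to 74.96 CPM, so the gap to the nearest library was 0.884 of the range of the group, above Dixon's critical value for 4 samples. Of 38 values tested in this group (37 named genes and the summed level) this was the 1 that passed, and chance alone passes about 1 in 20. Rpl3l was not at its lowest there over all libraries, since PGR_M 2 had 57.3 CPM. Groups of 3 were not tested. No gene had all PGR females on one side of the control females and all PGR males on the other side of the control males.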

How the results depend on the processing

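Medians of the 75 genes kept their sign under all 21 alternatives in each of the 7 comparisons, and each stayed within 0.0627 on the log2 scale of its value as reported, the spread of the median between libraries of a group. In the averaged vector comparison the number of genes that were lower at an edgeR adjusted p under 0.05 went from 0 to 1 with no count filter and to 1 with DESeq2, and it ranged from 0 to 2 when 1 library was left out; the other counts stayed at 0. Of 840 values of named genes under an alternative, 825 kept direction and call, 4 became calls (Rpl22 in 3 and Rpl11 in 1, above) and 11 changed sign, all close to 0. Leaving out 1 library gave Rps14 in the female vector effect a range of -0.0013 (without PGR_F 4) to 0.13, Rpl3l in the interaction -0.0078 (without PGR_M 2) to 0.37, Rpl7a in the control sex difference -0.14 to 0.0202 (above 0 without Con_F 2, Con_F 3 or Con_M 3), Rps19 there -0.12 to 0.0223 (without Con_F 4), Rpl10a in the PGR sex difference -0.20 to 0.00182 (without PGR_F 1), Rps19 in the averaged sex difference -0.0661 to 0.00795 (without Con_F 4) and Rpl13a there -0.36 to 0.0305 (without Con_M 1). Rps19 in the averaged sex difference was 0.00885 with library size alone and 0.0142 with the replicate block. The cause was not tested. Number pairing was checked: deviations of same-numbered libraries correlated at -0.25 to 0.25 (median -0.02, 3 of 16 pairs over 0.1). Deviations from the mean of so few libraries offset one another, so this check cannot decide whether same-numbered libraries are paired. With the replicate block the averaged vector count of genes lower at an unadjusted p under 0.05 went from 9 to 5, and 0 genes passed in any comparison. With no count filter that count was also 5, and the averaged sex count went from 11 to 4. With library size alone these counts were 5 and 18, the female vector count went from 6 to 2, the male one from 3 to 0 and the PGR sex count from 1 to 4. Over all genes, the averaged vector comparison called 1 gene as reported, 334 with DESeq2, 146 with no count filter and 5 with library size alone. Low counts limit Rpl13a, Rps4l and Rps27l most.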
